A study of Mus musculus with 9 samples.

Results

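The DNA replication and mitosis genes described here are 49 named genes of the cell division machinery, followed in BaF3 cells that carry 1 of 3 fusion tyrosine kinases. Probe sets were taken where the platform annotation gives a single symbol from the list, and 3 genes with several such probe sets were represented by the one whose mean over 9 arrays was highest. This gave 48 measured genes of 19938 genes tested on the array, 27 of DNA replication and 21 of mitosis. Ccnb1, which encodes the mitotic cyclin B1, had no probe set with that symbol alone and has no value here. BaF3 is a mouse haematopoietic cell line that grows only with interleukin-3 unless a transforming kinase replaces it. All cells were infected with a retrovirus and sorted for EGFP, and the groups differ in the fusion carried: BCR-RET, FGFR1OP-RET or BCR-ABL in its p210 form. Each group had 3 Affymetrix MouseGene 1.0 ST arrays of total RNA. The titles number the arrays 1, 2 and 3 in each group, and the labels say neither what a number marks nor if cells were infected or cultured separately for each array. The p-values therefore rest on array-to-array spread that may be technical. Each group is a sorted infected population of a single line, and the sources used here give neither the culture conditions at harvest nor a cell cycle profile. Cells without a fusion were not analysed here.

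Before a cell copies its DNA, the origin recognition complex, Cdc6 and Cdt1 load the ring of Mcm proteins onto origins, a step called licensing. Mcm10 and the GINS complex then help to turn the ring into an active helicase, and polymerases, the clamp Pcna and the clamp loader Rfc copy the strands while ribonucleotide reductase and related enzymes supply nucleotides. Transcription of many of these genes is driven by E2F factors as cells enter S phase, and a later wave of genes for cyclin B, mitotic kinases and spindle proteins is switched by complexes that bind the cell cycle genes homology region (CHR) and the CCAAT box. In dividing cultures such as BaF3, the level of both sets follows how many cells are in each phase as well as how much of each transcript a cell holds, and on bulk RNA fewer cells in a phase and less RNA per cell cannot be told apart.

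Promoters of 39 of the 48 measured genes were found in the RefSeq promoter table (build GRCm38.p6), from 250 bases before to 50 after a start, 40 promoters in all because Mcm7 has 2 entries. Of the genes that passed the test between replicate numbers (described further on), 5 had an entry, and their promoters are shown because these are the members on which the results turn. They are Rfc4 (chr16:23127681-23127980, minus strand) and Chaf1b (chr16:93883651-93883950, plus strand), Rfc3 (chr5:151651159-151651458, minus strand), Mcm7 (chr5:138171834-138172133, minus strand; the first of its entries) and Cdca8 (chr4:124936868-124937167, minus strand). Capitals mark matches to 3 motifs on either strand: E2F (TTTCCCGC, TTTCGCGC, TTTGCCGC or TTTGGCGC), the CCAAT box, bound by NF-Y, and CHR (TTTGAA or TTCGAA).
Rfc4: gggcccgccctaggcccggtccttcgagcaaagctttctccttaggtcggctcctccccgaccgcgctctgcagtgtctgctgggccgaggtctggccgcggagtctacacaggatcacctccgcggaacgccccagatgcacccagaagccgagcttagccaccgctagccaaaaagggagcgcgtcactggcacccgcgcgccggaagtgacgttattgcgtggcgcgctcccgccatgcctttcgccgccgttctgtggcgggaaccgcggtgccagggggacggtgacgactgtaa
Chaf1b: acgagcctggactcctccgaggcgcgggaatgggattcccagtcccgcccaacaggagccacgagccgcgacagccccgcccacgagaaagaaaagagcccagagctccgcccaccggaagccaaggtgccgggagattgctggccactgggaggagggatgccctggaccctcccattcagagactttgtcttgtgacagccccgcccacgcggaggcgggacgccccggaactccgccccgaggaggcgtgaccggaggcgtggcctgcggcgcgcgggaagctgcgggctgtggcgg
Rfc3: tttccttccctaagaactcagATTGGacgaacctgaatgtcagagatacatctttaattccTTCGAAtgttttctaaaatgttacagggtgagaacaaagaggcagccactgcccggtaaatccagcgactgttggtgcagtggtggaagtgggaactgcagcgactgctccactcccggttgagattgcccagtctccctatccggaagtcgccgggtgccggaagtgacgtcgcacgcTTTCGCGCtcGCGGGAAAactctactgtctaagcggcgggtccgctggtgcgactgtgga
Mcm7: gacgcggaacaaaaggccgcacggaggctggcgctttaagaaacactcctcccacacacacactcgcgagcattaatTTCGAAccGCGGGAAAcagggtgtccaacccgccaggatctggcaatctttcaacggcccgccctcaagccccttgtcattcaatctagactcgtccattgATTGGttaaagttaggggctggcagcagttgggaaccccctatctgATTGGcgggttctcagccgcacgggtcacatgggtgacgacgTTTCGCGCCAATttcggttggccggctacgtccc
Cdca8: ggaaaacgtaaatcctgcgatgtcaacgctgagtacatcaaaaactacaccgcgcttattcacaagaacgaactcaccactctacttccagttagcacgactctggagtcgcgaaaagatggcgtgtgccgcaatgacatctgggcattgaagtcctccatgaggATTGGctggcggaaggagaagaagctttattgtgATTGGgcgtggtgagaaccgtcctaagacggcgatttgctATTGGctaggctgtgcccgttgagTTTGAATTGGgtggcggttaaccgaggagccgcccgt

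The Rfc3 promoter held 2 E2F matches, 1 CCAAT match and 1 CHR match, and the Mcm7 promoter printed above held 2, 3 and 1. The other Mcm7 entry held 0, 1 and 0. In the printed Mcm7 promoter an E2F match overlaps a CCAAT match, and in Cdca8 the CHR match overlaps 1 of 4 CCAAT matches. Rfc4 and Chaf1b had no match, which says only that these letters are not in this window. E2F letters stood in 43.5% of 23 replication gene promoters and in 5.88% of 17 mitosis gene promoters, against 2.26% of all 32851 promoters of the same length. The CHR letters had the opposite distribution, with 13.0% of replication gene promoters, 82.4% of mitosis gene promoters and 19.2% of all promoters. The short CCAAT box stood in 56.5%, 88.2% and 37.4%. Replication genes with an E2F match included Mcm3, Mcm5, Mcm6, Cdc6, Cdt1, Orc1, Pola1 and Pold1, while Cdk1 was the mitosis gene with one. Top2a, with 4 CHR and 6 CCAAT matches, had the most matches of the mitosis genes.

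**Figure D1:**
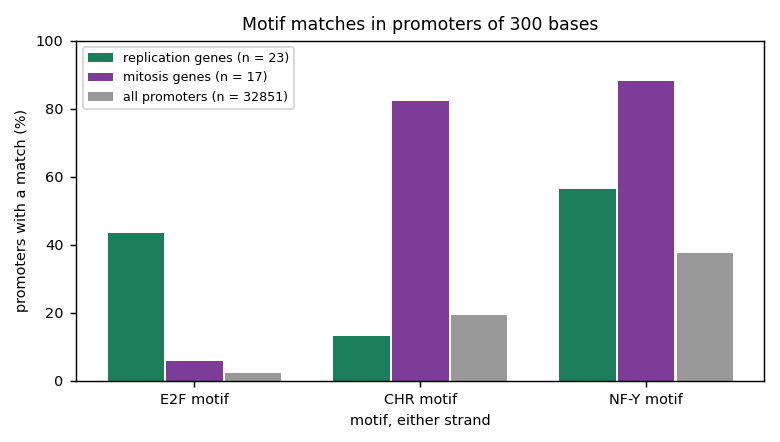
Percent of promoters of 300 bases with at least 1 match to the E2F, CHR and NF-Y (CCAAT) motifs on either strand, for replication genes (green), mitosis genes (purple) and all promoters in the table (grey). E2F letters stand in 43.5% of replication gene promoters and CHR letters in 82.4% of mitosis gene promoters.

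All 48 genes lay above the median of all probe sets, 8.02 on the deposited log2 scale. Their means over 9 arrays ran from 9.38 for Ung, the uracil-DNA glycosylase, to 13.91 for the sliding clamp Pcna. Levels of different probe sets are not compared further, since each probe set has its own response. Within a gene the spread was small: the range over the 9 arrays had a median of 0.32 log2 units for these genes, against 0.31 for all genes tested. Rfc4 had the largest range among them, 0.96. Array medians of all probe sets lay between 8.01 and 8.04, and arrays correlated at 0.993 to 0.996 inside a group and at 0.989 to 0.996 across groups. Of 12 blood cell genes 11 lay above the median (Kit was at 7.35), and of 11 measured fibroblast genes, a list included because retroviruses are often packaged in fibroblast lines, 5 did, the highest at 8.98.

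**Figure D2:**
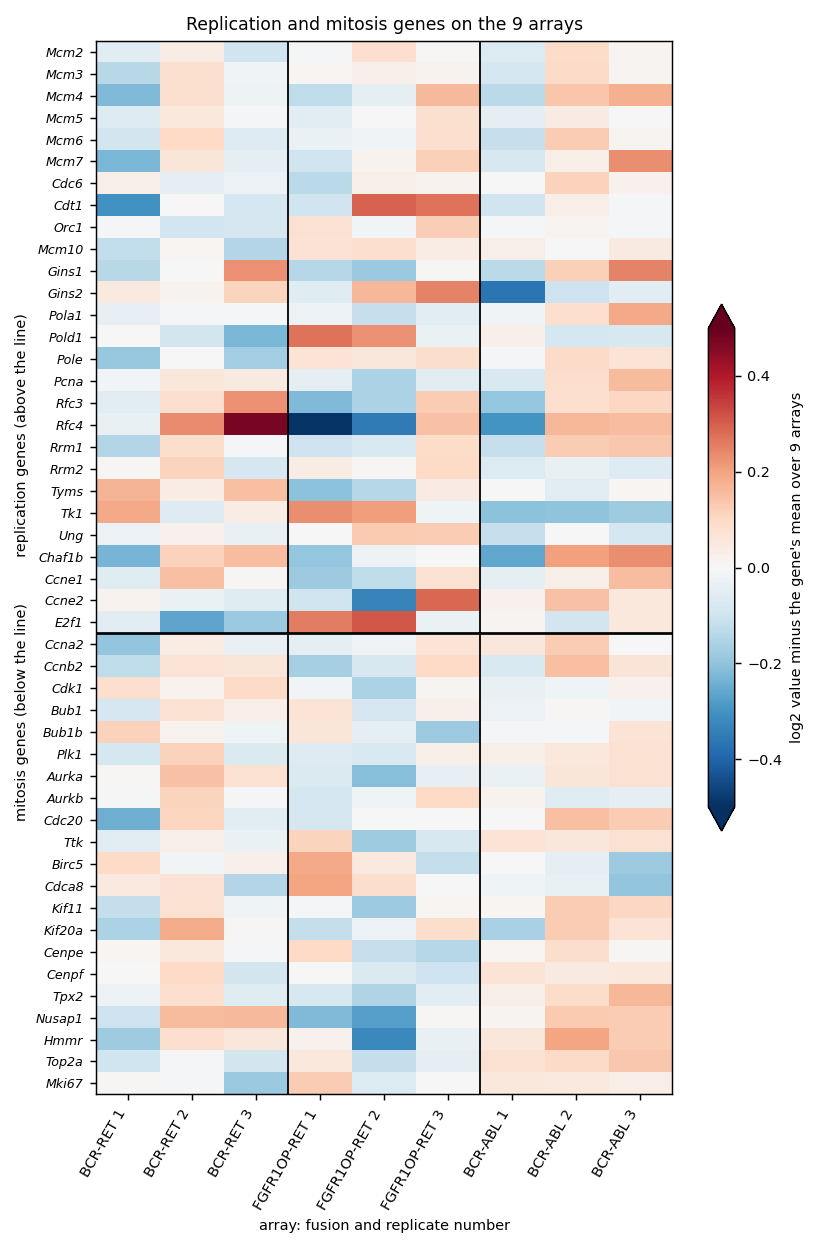
Log2 level of each of the 48 measured genes on each of 9 arrays, drawn as the deviation from the gene's mean over all arrays, with replication genes above mitosis genes. Deviations are small for most genes, and Rfc4 has the widest range, 0.96.

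No replication or mitosis gene passed the test between any 2 of the 3 fusions in the fit without the replicate number (limma on all 19938 genes, Benjamini-Hochberg adjusted p under 0.05). For BCR-RET against BCR-ABL 0 of 48 passed, where 0.587% of all genes did; 4 had an unadjusted p under 0.05 (11.4% of all genes), and the lowest adjusted p was 0.304. For FGFR1OP-RET against BCR-ABL 0 of 48 passed, against 1.02% of all genes; 10 had an unadjusted p under 0.05 (9.75% of all genes), and the lowest adjusted p was 0.133. For BCR-RET against FGFR1OP-RET 0 of 48 passed, against 1.33% of all genes; 10 had an unadjusted p under 0.05 (14.9% of all genes), and the lowest adjusted p was 0.136. The first and second comparison share the BCR-ABL arrays. With the replicate number added to the fit, Tk1 passed in FGFR1OP-RET against BCR-ABL. Of all 19938 genes, 401 then passed as higher and 175 as lower in that comparison. Rfc4, Cdt1 and Pold1 passed with it in BCR-RET against FGFR1OP-RET, where 561 of all genes passed as higher and 574 as lower. Same-numbered arrays did not all vary together in those comparisons, as described further on.

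The data limit how large a difference between these sets of arrays could be. The spread behind the intervals may be technical, so the limits need not hold for the same fusions in other cultures. The 95% interval of the log2 difference lay within 0.5 of 0 for 47 genes in BCR-RET against BCR-ABL, for 45 in FGFR1OP-RET against BCR-ABL and for 45 in BCR-RET against FGFR1OP-RET. Most genes on the array had such an interval: 18750, 18642 and 18420 of all 19938 in these comparisons. The median difference over the 48 genes was -0.05, -0.07 and 0.01 in these comparisons, against 0.03, 0.00 and 0.03 over all genes.

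**Figure D3:**
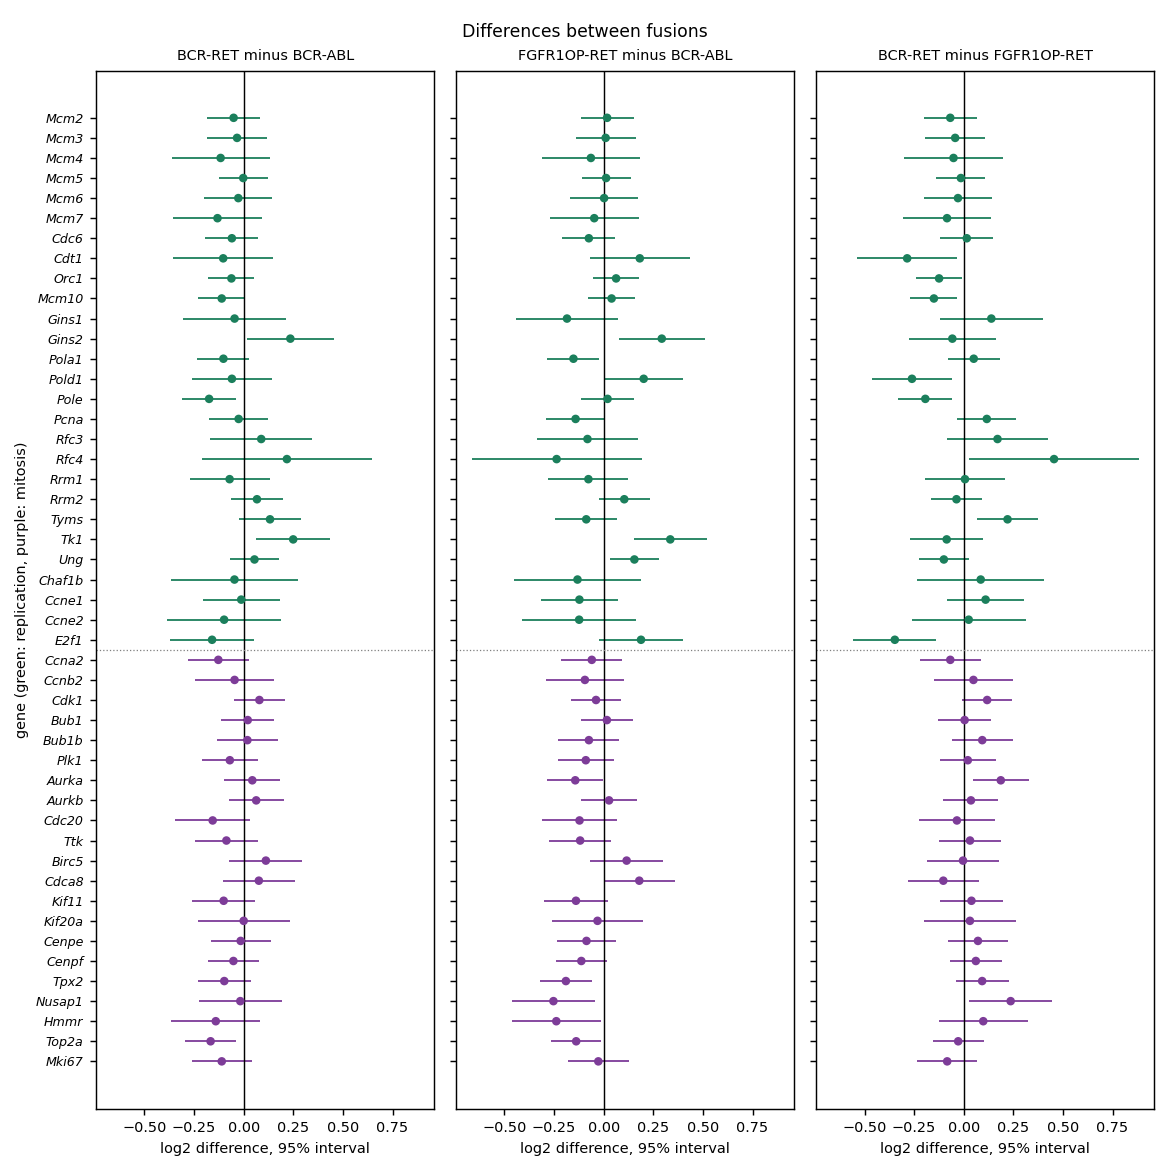
Log2 difference with 95% interval for each of the 48 genes, in BCR-RET minus BCR-ABL, FGFR1OP-RET minus BCR-ABL and BCR-RET minus FGFR1OP-RET cells. Most intervals include 0, and none of the 48 passed the adjusted threshold in any of the comparisons in this fit, which leaves out the replicate number.

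Of the 9 licensing and Mcm helicase genes, none passed between fusions in the fit without the replicate number. In BCR-RET against BCR-ABL all 9 differences were below 0, with a median of -0.06 and a lowest value of -0.13 for Mcm7. Of all 19938 genes 7831 were below 0, and of 49 other replication genes, listed further on, 35 were, with a median of -0.04. In FGFR1OP-RET against BCR-ABL 6 of 9 lay above 0 (50.8% of all genes did), and the median was 0.01. In BCR-RET against FGFR1OP-RET 8 of 9 lay below 0, with a median of -0.05, where 7865 of all 19938 genes lay below 0. Cdt1 and Orc1, the largest subunit of the origin recognition complex, had an unadjusted p under 0.05 in this comparison. Cdt1 (probe set 10576140), the loader of the Mcm ring that is destroyed once S phase starts, was at 10.89, 11.20 and 11.11 on BCR-RET arrays, at 11.10, 11.49 and 11.47 on FGFR1OP-RET arrays and at 11.10, 11.23 and 11.19 on BCR-ABL arrays. Array number 1 was the lowest of its group in each fusion, and the groups overlapped. Cdt1 was 0.29 below FGFR1OP-RET in BCR-RET cells (95% interval of the difference -0.54 to -0.03, SE 0.11, adjusted p = 0.286). With the replicate number added to the limma fit its adjusted p was 0.0333, although same-numbered arrays did not all vary together between these fusions.

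Among the factors that activate the helicase, Gins2 (probe set 10582190), a GINS subunit, was at 10.39, 10.36 and 10.45 in BCR-RET cells, at 10.28, 10.50 and 10.58 in FGFR1OP-RET cells and at 9.97, 10.23 and 10.28 in BCR-ABL cells. Every BCR-RET array lay above every BCR-ABL array, while the lowest FGFR1OP-RET array and the highest BCR-ABL array met at 10.28. The difference from BCR-ABL was 0.24 in BCR-RET (SE 0.10, adjusted p = 0.405) and 0.29 in FGFR1OP-RET (SE 0.10, adjusted p = 0.322). Mcm10, which joins the helicase to the polymerases, was lower on every BCR-RET array than on every FGFR1OP-RET array, with a difference of -0.15 (adjusted p = 0.239).

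The polymerases, clamp and clamp loader included Rfc4, the gene with the widest range. Pole (probe set 10524169), the catalytic subunit of the leading strand polymerase, was at 11.21, 11.40 and 11.23 in BCR-RET cells, at 11.47, 11.46 and 11.49 in FGFR1OP-RET cells and at 11.39, 11.50 and 11.47 in BCR-ABL cells. All BCR-RET arrays lay below all FGFR1OP-RET arrays, by 0.19 on average (adjusted p = 0.193), and the difference from BCR-ABL was -0.17 (adjusted p = 0.321). Pold1 (probe set 10562818), the catalytic subunit of the lagging strand polymerase, was at 10.59, 10.50 and 10.36 in BCR-RET cells, at 10.86, 10.81 and 10.55 in FGFR1OP-RET cells and at 10.61, 10.50 and 10.51 in BCR-ABL cells. FGFR1OP-RET numbers 1 and 2 stood above the other 7 arrays, and number 3 did not. The difference was 0.20 for FGFR1OP-RET against BCR-ABL (adjusted p = 0.508) and -0.26 for BCR-RET against FGFR1OP-RET (adjusted p = 0.228). With the replicate number added to the limma fit the latter had an adjusted p of 0.0384, although same-numbered arrays did not all vary together between these fusions.

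Rfc4 (probe set 10438690), a clamp loader subunit, was at 12.21, 12.49 and 12.72 in BCR-RET cells, at 11.76, 11.90 and 12.40 in FGFR1OP-RET cells and at 11.95, 12.42 and 12.40 in BCR-ABL cells. All groups overlapped, and within each the lowest array was number 1. The difference was 0.22 for BCR-RET against BCR-ABL (SE 0.19, adjusted p = 0.672), -0.24 for FGFR1OP-RET against BCR-ABL (SE 0.19, adjusted p = 0.748) and 0.46 for BCR-RET against FGFR1OP-RET (SE 0.19, adjusted p = 0.313). Within numbers 1, 2 and 3 the last difference was 0.45, 0.59 and 0.33. With the replicate number added to the limma fit its adjusted p was 0.0153, although same-numbered arrays did not all vary together between these fusions. Pcna was higher on every BCR-RET array than on every FGFR1OP-RET array, and its difference of 0.12 had an adjusted p of 0.454.

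Nucleotide supply held the largest separation from BCR-ABL. Tk1 (probe set 10393431), the thymidine kinase of the salvage pathway, was at 11.36, 11.11 and 11.21 in BCR-RET cells, at 11.40, 11.38 and 11.15 in FGFR1OP-RET cells and at 10.97, 10.97 and 10.99 in BCR-ABL cells. Each RET fusion array exceeded each BCR-ABL array. The log2 difference was 0.25 in BCR-RET (1.19-fold, SE 0.08, adjusted p = 0.304) and 0.34 in FGFR1OP-RET (1.26-fold, SE 0.08, adjusted p = 0.133). Without FGFR1OP-RET replicate 3, Tk1 was the 1 gene of 48 that passed between FGFR1OP-RET and BCR-ABL. Over the fits that left out 1 array, 70 to 185 of all genes passed in this comparison. With the replicate number added to the limma fit, Tk1 had an adjusted p of 0.0479, although same-numbered arrays did not all vary together between these fusions. Tyms (probe set 10528915), the thymidylate synthase of the de novo route, was at 12.18, 12.05 and 12.16 in BCR-RET cells, at 11.81, 11.87 and 12.05 in FGFR1OP-RET cells and at 12.01, 11.96 and 12.02 in BCR-ABL cells. BCR-RET lay above BCR-ABL on all arrays and overlapped narrowly with FGFR1OP-RET at 12.05, and its difference from FGFR1OP-RET was 0.22 (adjusted p = 0.196). Rrm2, a ribonucleotide reductase subunit, stood 0.10 above BCR-ABL in FGFR1OP-RET cells without overlap (adjusted p = 0.621).

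Of the regulators of S phase entry, E2f1 (probe set 10488785), the transcription factor that drives many of these genes, was at 10.61, 10.40 and 10.48 in BCR-RET cells, at 10.92, 10.98 and 10.63 in FGFR1OP-RET cells and at 10.68, 10.57 and 10.72 in BCR-ABL cells. BCR-RET arrays all lay below FGFR1OP-RET arrays, with a difference of -0.35 (SE 0.09, adjusted p = 0.136). Without FGFR1OP-RET replicate 3, E2f1 was the 1 gene of 48 that passed between the RET fusions. Over the fits that left out 1 array, 86 to 194 of all genes passed in this comparison. Against BCR-ABL the difference was -0.16 in BCR-RET (adjusted p = 0.535) and 0.19 in FGFR1OP-RET (adjusted p = 0.570). The cyclin E gene Ccne2 was lower on every BCR-RET array than on every BCR-ABL array, with a difference of -0.10 (adjusted p = 0.774).

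**Figure D4:**
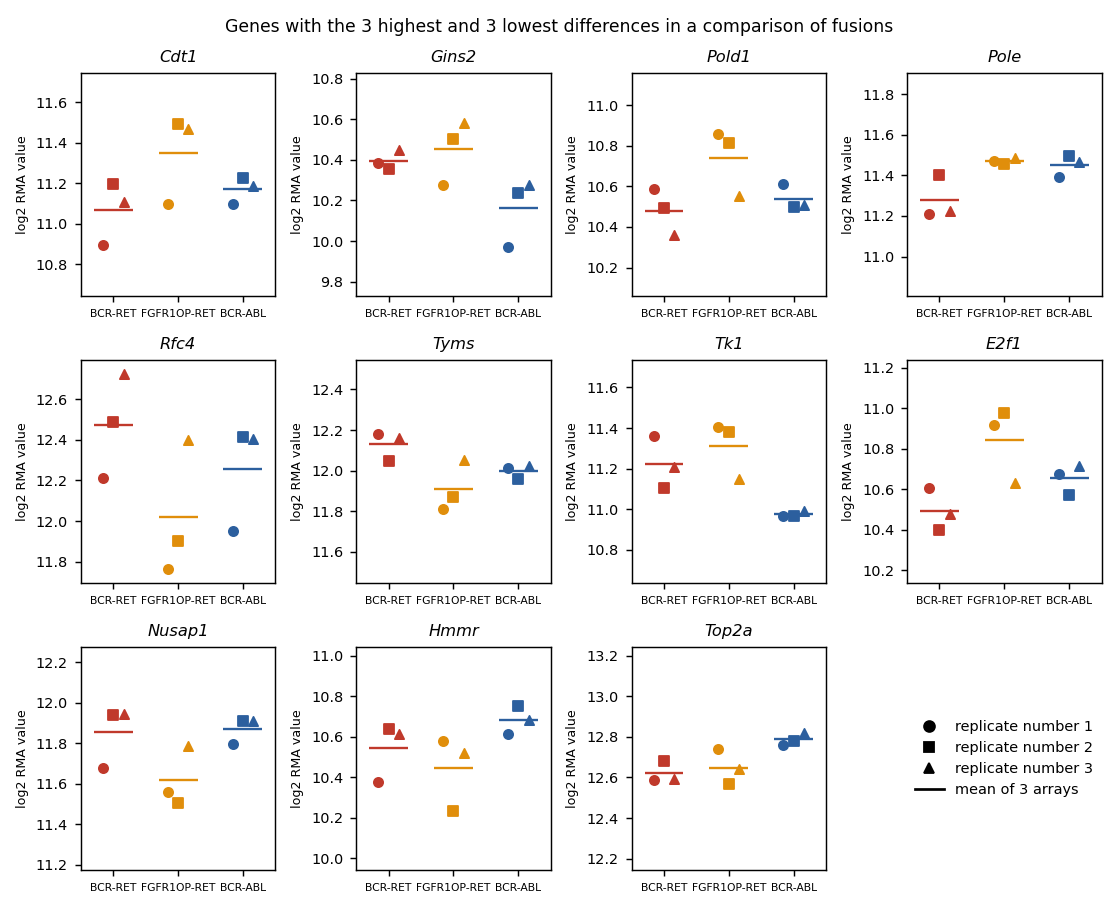
Log2 level on each array for the genes with the 3 highest and 3 lowest differences in any comparison of fusions, with BCR-RET and FGFR1OP-RET left of BCR-ABL. The 3 BCR-ABL values of Tk1, 10.97 to 10.99, lie below all 6 RET fusion values.

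Mitosis genes lay mostly below BCR-ABL in FGFR1OP-RET cells, without passing the test. Of 21 differences 4 were above 0 and 17 below, where 50.8% of all genes were above 0, and the median was -0.09, against 0.00 over all genes. In 7 of the 21 every FGFR1OP-RET array was lower than every BCR-ABL array, which held for 5.13% of all genes: the kinase Aurka, the anaphase activator Cdc20, the kinetochore gene Cenpf, the spindle assembly genes Tpx2, Nusap1 and Hmmr, and the DNA topoisomerase Top2a. In 1 of the 21, Cdca8, every FGFR1OP-RET array was higher (difference 0.18, adjusted p = 0.514), which held for 1383 of all 19938 genes. Among 63 other mitosis genes, listed further on, 6 were lower without overlap and 1 was higher. Of their differences 43 were below 0 and 20 above, with a median of -0.06. FGFR1OP-RET array 2 was low for the mitosis genes, with 19 of 21 below their mean over all arrays, and without it the median was -0.07. Of all 19938 genes, 9159 lay below their mean on that array. All 7 spindle, motor and kinetochore genes were below 0, with a median of -0.14.

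Nusap1 (probe set 10474984), a microtubule-binding spindle protein, was at 11.68, 11.94 and 11.94 in BCR-RET cells, at 11.56, 11.50 and 11.79 in FGFR1OP-RET cells and at 11.79, 11.91 and 11.91 in BCR-ABL cells. Its difference was -0.25 for FGFR1OP-RET against BCR-ABL (SE 0.09, adjusted p = 0.384) and 0.24 for BCR-RET against FGFR1OP-RET (SE 0.09, adjusted p = 0.285). Hmmr (probe set 10385248), a spindle protein and hyaluronan receptor, was at 10.38, 10.64 and 10.61 in BCR-RET cells, at 10.58, 10.23 and 10.52 in FGFR1OP-RET cells and at 10.61, 10.75 and 10.68 in BCR-ABL cells. FGFR1OP-RET lay below BCR-ABL without overlap, by 0.24 (SE 0.10, adjusted p = 0.477), and BCR-RET overlapped both.

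In BCR-RET cells 8 of 21 mitosis genes were above BCR-ABL, where 60.7% of all genes were, and 13 were below, with a median of -0.05. All BCR-RET arrays were lower for 3 (5.9% of all genes), the checkpoint kinase Ttk, Top2a and the proliferation marker Mki67. Top2a (probe set 10390707) was at 12.59, 12.68 and 12.59 in BCR-RET cells, at 12.74, 12.57 and 12.64 in FGFR1OP-RET cells and at 12.76, 12.78 and 12.82 in BCR-ABL cells. Every RET fusion array was below every BCR-ABL array, and the difference was -0.17 in BCR-RET (SE 0.06, adjusted p = 0.316) and -0.14 in FGFR1OP-RET (SE 0.06, adjusted p = 0.462). Between the RET fusions, Aurka and Cdk1 were higher on each BCR-RET array than on each FGFR1OP-RET array, with differences of 0.19 (adjusted p = 0.227) and 0.12 (adjusted p = 0.370). In all, the arrays did not overlap for 7 of 48 genes in BCR-RET against BCR-ABL (16.6% of all genes), for 11 in FGFR1OP-RET against BCR-ABL (12.1%) and for 6 in BCR-RET against FGFR1OP-RET (15.3%).

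Between replicate numbers 1 and 3 more genes passed than between fusions, over all genes as well as among these 48. With the fusion as a term in the fit, 7 of 48 genes passed between number 1 and number 3, which is 14.6%, against 9.85% of all genes. The 6 lower in number 1 were all replication genes, where 6.67% of all genes were lower, and 1 mitosis gene, Cdca8, was higher (3.18% of all genes). The median difference over the 48 genes was -0.07, against 0.01 over all genes. Between number 1 and number 2 none of the 48 passed (0.787% of all genes did) and 13 had an unadjusted p under 0.05 (14.2%), and between number 2 and number 3 none passed (0.00502%) and 4 had an unadjusted p under 0.05 (6.89%). The F-test over the numbers called 3, Rfc4, Chaf1b and Rfc3, against 4.45% of all genes. In number 1 against number 3, 16 genes had an unadjusted p under 0.05 (23.8% of all genes) and the arrays did not overlap for 14 (18.4%), 12 of them lower in number 1. In number 1 against number 2 the arrays did not overlap for 10, all lower in number 1 and 9 of them replication genes (10.4% of all genes did not overlap). Blood cell genes were read beside this. The log2 of the summed level of the 12 blood cell genes was 15.47 to 15.61 on number 1, 15.59 to 15.73 on number 2 and 15.63 to 15.78 on number 3, and Cd53, a leukocyte membrane protein gene, was lower in number 1 than number 3 by 0.56 (adjusted p = 0.00257), while Il3ra, the interleukin-3 receptor alpha chain gene, was higher by 0.23 (adjusted p = 0.0465). Of the 12 differences 5 were above 0 and 7 below. Their part in the result was not tested. Fibroblast genes summed to 11.34 to 11.49, 11.35 to 11.45 and 11.35 to 11.41.

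How many genes passed depended on the arrays fitted, for these genes and for all genes together. Without BCR-RET replicate 1 none of the 48 passed, when 1.42% of all genes did, and without BCR-RET replicate 3 Rfc4 alone did (3.92% of all genes). The count was 2 without BCR-ABL replicate 1 (4.76%), 2 without FGFR1OP-RET replicate 3 (2.63%) and 3 without BCR-ABL replicate 3 (6.39%). It was 4 without BCR-ABL replicate 2 (7.42%) or FGFR1OP-RET replicate 1 (5.35%), and 12 without FGFR1OP-RET replicate 2 (12.8%). The differences themselves kept their sign in all 18 alternatives tried, with ranges of -0.62 to -0.44 for Rfc4, -0.44 to -0.29 for Chaf1b, -0.32 to -0.22 for Mcm4 and 0.17 to 0.20 for Cdca8. The count was 14 with a filter on low values (25.4% of genes then passed) and 0 when every probe set was tested (1.62%). Between number 1 and number 2, Rfc4 and Kif20a passed without FGFR1OP-RET replicate 2, and Cdt1 and Chaf1b with the filter on low values (4.46% of genes). Over the fits that left out 1 array, 17 to 281 of all genes passed in this comparison.

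The widest separation by number was in the clamp loader. The Rfc4 values printed above gave 12.21, 11.76 and 11.95 on number 1 in BCR-RET, FGFR1OP-RET and BCR-ABL cells, against 12.72, 12.40 and 12.40 on number 3, with no overlap. Rfc4 was lower in number 1 by 0.53 on the log2 scale (0.691-fold, SE 0.08, adjusted p = 0.00705), and number 2 was at 12.49, 11.90 and 12.42. Rfc3 (probe set 10535979), another subunit of the loader, was at 10.79, 10.63 and 10.65 on number 1 and at 11.07, 10.97 and 10.95 on number 3, with 10.93, 10.69 and 10.93 on number 2. Numbers 1 and 3 did not overlap, and the difference was -0.31 (SE 0.06, adjusted p = 0.0163). The loader genes Rfc1, Rfc2 and Rfc5, in the list of other replication genes described further on, did not pass between these numbers. Rfc2 was at 10.45, 10.56 and 10.56 on number 1 and at 10.51, 10.52 and 10.56 on number 3. Rfc5 was at 11.906, 11.852 and 11.935 on number 1 and at 11.907, 11.947 and 11.905 on number 3.

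The chromatin assembly factor gene Chaf1b (probe set 10437040), which encodes a subunit of the complex that places histones behind the fork, was at 11.00, 11.04 and 10.98 on number 1 and at 11.39, 11.23 and 11.47 on number 3, with 11.35, 11.21 and 11.44 on number 2. Number 1 lay below both others in each fusion, and the difference from number 3 was -0.36 (SE 0.07, adjusted p = 0.0129). The GINS subunit gene Gins1 (probe set 10476989) was at 10.11, 10.10 and 10.11 on number 1 and at 10.48, 10.25 and 10.49 on number 3, with 10.25, 10.06 and 10.36 on number 2. Number 1 and number 3 did not overlap, with a difference of -0.30 (SE 0.07, adjusted p = 0.0220).

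The helicase subunits Mcm4 and Mcm7 passed as well. Mcm4 (probe set 10437945) was at 11.65, 11.75 and 11.74 on number 1 and at 11.85, 12.04 and 12.05 on number 3, with 11.95, 11.83 and 12.01 on number 2, and the difference of number 1 from number 3 was -0.27 (SE 0.07, adjusted p = 0.0351). Mcm7 (probe set 10534974) was at 12.22, 12.35 and 12.37 on number 1 and at 12.41, 12.57 and 12.69 on number 3, with 12.52, 12.47 and 12.48 on number 2, and the difference was -0.24 (SE 0.06, adjusted p = 0.0478). In both genes number 1 was the lowest array in every fusion. Cdca8 (probe set 10516246), a subunit of the chromosomal passenger complex that corrects kinetochore attachments, was the mitosis gene that passed, at 11.35, 11.50 and 11.28 on number 1 and at 11.15, 11.30 and 11.11 on number 3, with 11.37, 11.39 and 11.26 on number 2. It was higher in number 1 by 0.19 (SE 0.05, adjusted p = 0.0496), close to the threshold. Number 1 exceeded number 3 within each fusion, while the values of the numbers overlapped across fusions. Rfc4 kept its call in 15 of 18 alternatives tried, Chaf1b in 11, and Gins1 and Rfc3 in 10 each. Mcm4 and Mcm7 kept theirs in 7 of 18 each and Cdca8 in 3 of 18.

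**Figure D5:**
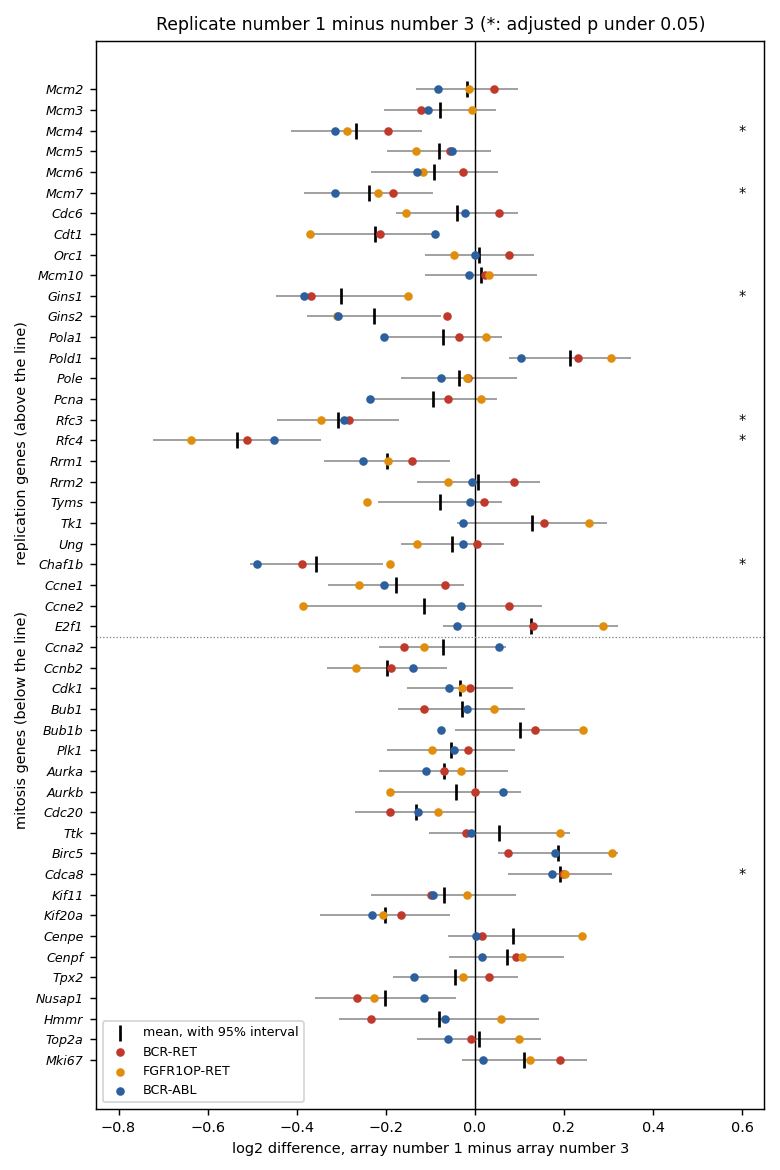
Log2 difference of array number 1 minus number 3 for the 48 genes, with a coloured point for each fusion and a black bar with a 95% interval for their mean. Rfc4, at -0.53, is the farthest below 0, and asterisks mark the 6 replication genes and Cdca8 that passed the adjusted threshold.

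In 14 of the 48 genes array 1 was the lowest of its group in all 3 fusions, against 12.5% of all genes. These were Mcm3, Mcm4, Mcm5, Mcm6, Mcm7, Cdt1, Rfc3, Rfc4, Rrm1, Chaf1b, Ccne1, Ccnb2, Cdc20 and Kif20a, 11 of 27 replication genes and 3 of 21 mitosis genes. It was the highest in all 3 for Pold1, Birc5 and Mki67 (8.38% of all genes). Of the 9 licensing genes 6 were lowest on array 1. On the number 1 arrays 20 of 27 replication genes in BCR-RET, 19 in FGFR1OP-RET and 23 in BCR-ABL cells lay below their mean over all arrays. Of all 19938 genes, 8187, 12087 and 10791 did so on the same arrays.

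Other genes of the same processes were followed in a list of 52 replication genes, of which 49 were measured, and a list of 65 mitosis genes, of which 63 were. Between fusions 1 gene of these lists passed: Iqgap3, a scaffold protein gene, was 0.27 lower in BCR-RET than in FGFR1OP-RET cells (SE 0.05, adjusted p = 0.0318), a comparison in which 1.33% of all genes passed. The highest and lowest replication genes in BCR-RET against BCR-ABL were Rpa3, of the single-stranded DNA-binding complex (0.30), and the ligase Lig1 (-0.21). In FGFR1OP-RET against BCR-ABL they were E2f2 (0.22, adjusted p = 0.0518) and Rpa3 (-0.38). In BCR-RET against FGFR1OP-RET they were Rpa3 (0.68) and Chaf1a (-0.23), and the lowest adjusted p of the 49 was 0.0536. Differences of the 63 mitosis genes from BCR-ABL ran from -0.25 to 0.26 in BCR-RET and from -0.31 to 0.18 in FGFR1OP-RET. Between number 1 and number 3, 3 of the 49 replication genes were lower and 1 higher, against 6.67% and 3.18% of all genes. The lower ones were Dscc1 (-0.45, adjusted p = 0.00257), a subunit of an alternative clamp loader linked to sister chromatid cohesion, Dtl (-0.36, adjusted p = 0.0102), an adaptor that targets Cdt1 for degradation, and Gins4 (-0.44, adjusted p = 0.0140), and the kinase gene Cdc7 was higher (0.33, adjusted p = 0.0142). Of the 63 mitosis genes 7 were lower and 3 higher, read against the same shares of all genes, with Melk (-0.34, adjusted p = 0.00912) and Mastl (-0.45, adjusted p = 0.0124), both kinases, at the lowest adjusted p. Between number 1 and number 2 Dscc1 was lower by 0.39 (adjusted p = 0.0171), the 1 gene of these lists to pass where 0.787% of all genes did.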

How the data were processed

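The deposited values are gene-level log2 RMA values, which the authors made with Affymetrix Expression Console (version and genome build not given in the sources used here), per the submitters' processing notes. Because RMA equalises the array distributions, a general shift of transcripts would be removed. Of 35557 probe sets, 21789 had 1 gene symbol, 1621 several and 12147 none; the last 2 kinds were left out of the main tests. No scanner intensities were used here, and the number of arrays limits the precision.

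The 3 comparisons of fusions were fitted with limma 3.58.1 in R 4.3.3 (lmFit, eBayes, a mean per group, all 9 arrays sharing the spread), and the replicate numbers with number and fusion as terms. P-values were two-sided and adjusted by Benjamini-Hochberg over all 19938 genes, with 0.05 as the threshold. The scripts were tested on simulated data. Figures used Python 3.11.15, pandas 2.3.3 and matplotlib 3.10.9. Members and lists were chosen with earlier results of these data known. Array values were printed for members past the threshold and, in each comparison of fusions, for the 3 highest and 3 lowest differences. Of the other lists, some of the genes past the threshold and some of those at the extremes were named.

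Deviations of same-numbered arrays from their group means correlated at 0.617, 0.155 and 0.367 between BCR-RET and BCR-ABL, above the limit of 0.1, so that comparison was also fitted with the number as a block. In the other comparisons number 2 fell below it, and their fits with the block are given only as an alternative. Alternatives were a filter on low values, the mean of probe sets, all probe sets, centred arrays, a trended robust fit, leaving out repeated values, the replicate block, other sets of arrays and leaving out each array.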

Additional observations from a re-analysis of the deposited data

How the results depend on the processing

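No member passed in BCR-RET against BCR-ABL under any alternative tried, the block on replicate number included (0 of 48). In FGFR1OP-RET against BCR-ABL the count was 0 to 1 when each array was left out in turn (Tk1, without FGFR1OP-RET replicate 3), while 70 to 185 of all genes passed. In BCR-RET against FGFR1OP-RET it was also 0 to 1 (E2f1, without the same array), while 86 to 194 of all genes passed. Numbers 2 did not pair in these comparisons (correlations of -0.128 and -0.152), where 4 of 6 arrays correlated best with their own number; with the replicate block 1 member (Tk1, adjusted p = 0.0479; 2.89% of all genes) and 3 members (Rfc4, Cdt1 and Pold1, adjusted p = 0.0153, 0.0333 and 0.0384; 5.69% of all genes) passed.

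For number 1 against number 3, where 7 passed, the count was 14 with a filter on low values and 0 with all probe sets, with shares of all genes given above. It was 1, 0 and 3 without the arrays of BCR-ABL, BCR-RET and FGFR1OP-RET, fits whose share of all genes is not given here. When each array was left out it ran from 0 to 12, while 284 to 2549 of all genes passed. For number 1 against number 2 the count was 2 with the filter (Cdt1 and Chaf1b). It was 0 to 2 when each array was left out, while 17 to 281 of all genes passed. For number 2 against number 3 it was 0 to 0, while 0 to 5 of all genes passed. The cause of these changes was not tested. The precision is limited by 3 arrays a group.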
